A study of Mus musculus with 10 samples.

Results

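The 9 genes examined are genes whose products bring long-chain fatty acids into a cell or join them to coenzyme A: the fatty acid translocase gene Cd36, the long-chain acyl-CoA synthetase genes Acsl1, Acsl3, Acsl4 and Acsl5, and the fatty acid transport protein genes Slc27a1, Slc27a2, Slc27a4 and Slc27a5. They were chosen by name, and they are 9 of the 56748 genes in the deposited table. All 9 were among the 14183 genes that passed the filter on low counts. The cells were hepatocytes from wild-type mice, kept overnight in medium conditioned by adipocytes that had themselves been starved overnight. The adipocytes had been grown from the inguinal stromal vascular fraction of male mice fed an obesogenic diet for 6 months. Donors of the fat were Mttpf/f mice, which carry floxed alleles of the microsomal triglyceride transfer protein gene, or A-Mttp-/- mice, which lack that gene in adipose tissue, and the labels give n = 3 for these mice. Hepatocytes given medium from floxed adipocytes form the group Mttp_flox_CM, and those given medium from knockout adipocytes form the group Mttp_KO_CM, with 5 libraries each. Both kinds of adipocyte were differentiated with IBMX, insulin, dexamethasone, indomethacin and rosiglitazone, an agonist of PPARγ, and were then kept in insulin and afterwards in plain medium. The deletion lies in the fat donors, so the hepatocytes' own Mttp does not check the labels. The sources used here do not give the promoter that drives the adipose deletion or the age of the mice.

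A library held between 14199798 and 17178131 counts. Levels are given as CPM (counts scaled to a common library size, using the trimmed mean of M-values) or, where genes are compared with each other, as the deposited FPKM, which also divides by gene length. A gene was called changed where edgeR's quasi-likelihood test gave a Benjamini-Hochberg adjusted p under 0.05 over all 14183 genes. By that test 36.4% of all genes were called, 18.2% higher and 18.1% lower in Mttp_KO_CM. When libraries were scaled by their totals alone, 38.1% of the called genes were higher, compared with 50.1% with the main scaling. One library of each group carries a number in its column name that no label gives, and it is called the unnumbered library here. Separate cultures or animals are not named for the libraries, so a p-value here measures the spread among libraries alone, and that spread may be technical.

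Long-chain fatty acids reach the hepatocyte bound to albumin and cross its membrane with the help of CD36 and of the fatty acid transport proteins, which the Slc27 genes encode. Inside, an acyl-CoA synthetase uses ATP to join the fatty acid to coenzyme A, and this step holds it in the cell and makes it a substrate for oxidation, for glycerolipid synthesis or for chain elongation. The transport proteins carry an acyl-CoA synthetase activity of their own, mainly for very-long-chain fatty acids, while the Acsl enzymes differ in where they sit in the cell and in the chains they prefer. Several of these genes, Acsl1 among them, are textbook targets of PPARα, the nuclear receptor that responds to fatty acids in liver.

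Of the 9 genes, 6 were higher in Mttp_KO_CM and 0 were lower, beside 18.2% and 18.1% of all genes tested. Acsl1 rose most, 4.06-fold, and Cd36, Slc27a2 and Acsl3 rose between 1.75-fold and 1.81-fold. Slc27a4 and Acsl4 rose by less, 1.21-fold and 1.15-fold. Acsl5, Slc27a1 and Slc27a5 did not pass the test. The same 6 genes had CPM ranges that did not overlap, the lowest Mttp_KO_CM value lying above the highest Mttp_flox_CM value. Over all genes tested, 13.0% were higher without overlap. The 4 genes that rose at least 1.5-fold compare with 2.43% of all genes that did so. The median log2 change over the 9 genes was 0.28, and that over all genes tested was 0.00. Summed FPKM over the 9 genes was 475 ± 14.2 in Mttp_flox_CM and 714 ± 35.2 in Mttp_KO_CM (SD, n = 5 each). These sums depend on the deposited gene lengths.

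**Figure D1:**
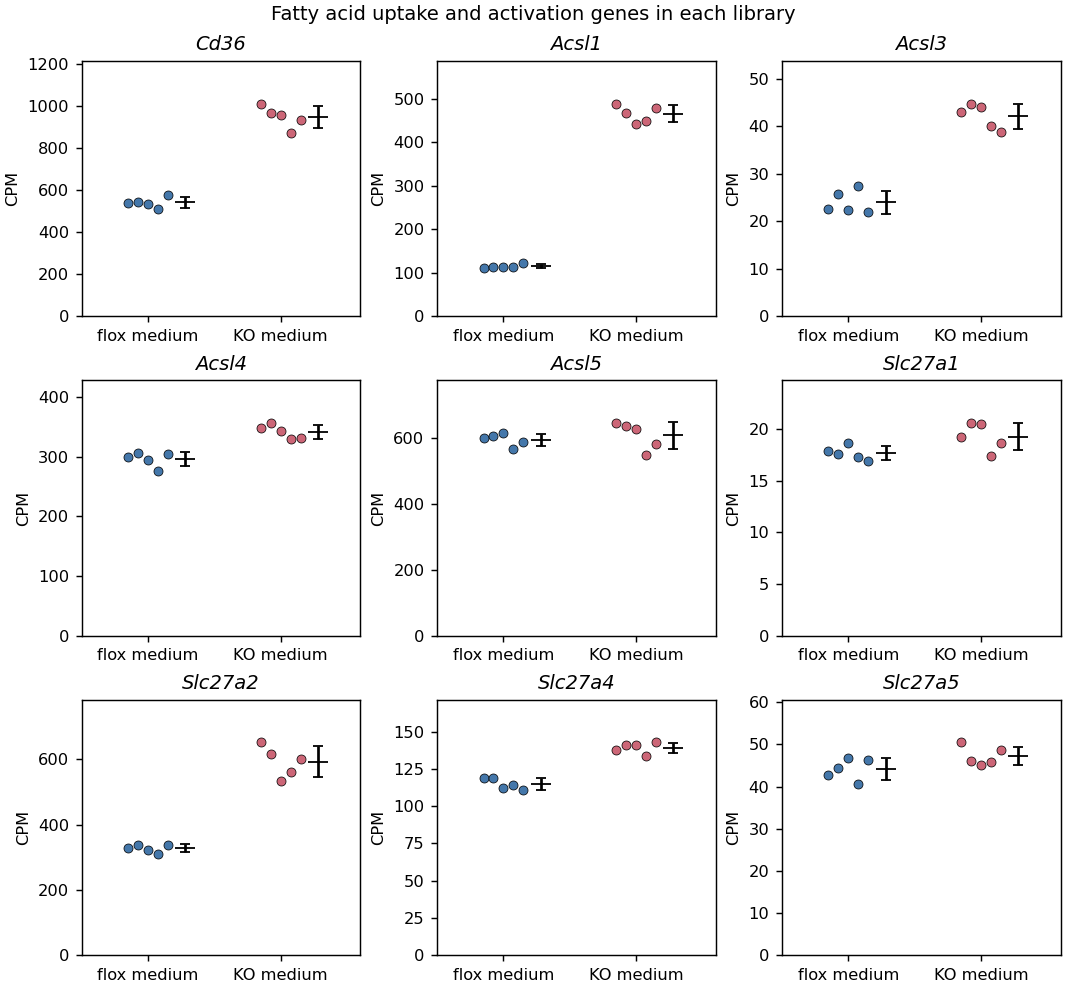
CPM of each of the 9 genes in every library, 1 panel per gene with its own axis, with a point for each of the 5 Mttp_flox_CM and 5 Mttp_KO_CM libraries and a bar for the group mean with its SD. The groups are apart for Cd36, Slc27a2, Slc27a4, Acsl1, Acsl3 and Acsl4, and they overlap for Acsl5, Slc27a1 and Slc27a5.

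Cd36 (ENSMUSG00000002944, chromosome 5, 17986688 to 18093799 on the minus strand, GRCm39) encodes the scavenger receptor that binds long-chain fatty acids at the plasma membrane. Its CPM was 538, 543, 535 and 508 in Mttp_flox_CM libraries 1 to 4 and 577 in the unnumbered one. In Mttp_KO_CM it was 1010, 964, 958 and 868 in libraries 1 to 4 and 934 in the unnumbered one. The lowest Mttp_KO_CM library, number 4, lay well above the highest Mttp_flox_CM library. Cd36 rose by a log2 of 0.81 ± 0.035 (SE; 95% interval 0.74 to 0.88; edgeR adjusted p = 1.8e-15), from 540 ± 24.6 to 948 ± 53.2 CPM (SD, n = 5 each). By FPKM it was the most abundant of the 9 genes in both groups, at 150 ± 6.85 and 262 ± 14.5.

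CD36 is also known in endothelial cells, macrophages and adipocytes, so their markers were read beside it. Among all genes tested, 18.2% rose and 18.1% fell. All 10 endothelial markers fell, and their summed CPM was 2260 to 2420 in Mttp_flox_CM and 1310 to 1390 in Mttp_KO_CM. Of 10 macrophage markers, 9 fell and Cd68 rose, with a summed CPM of 778 to 848 and then 533 to 599. Both sets moved opposite to Cd36, and none of these markers was at 0. In bulk libraries, fewer cells of a type and less RNA per cell cannot be told apart. Of 8 adipocyte markers, 3 were tested and all 3 rose: Lipe by a log2 of 1.07, Cidea by 0.71 and Fabp4, which was the most abundant at 98.3 and 108 CPM, by 0.13. The other adipocyte markers did not pass the filter on low counts. Lep and Cfd had 0 counts in every library, Adipoq 0 to 2, Retn 0 to 3 and Plin1 1 to 12. A count of 0 allows up to 3 counts, or 0.211 CPM in the smallest library, for counting error only. Hepatocyte markers were abundant in both groups, and of 12 tested 9 fell, Alb among them by 0.22 on the log2 scale, and 2 rose (Asgr1 and Apoa2), with a median log2 change of -0.22 and a summed CPM of 49900 to 51900 and then 42300 to 44000. Among stellate cell and fibroblast markers 8 of 10 fell and 0 rose (summed CPM 95.9 to 106, then 53.5 to 61.0), and among cholangiocyte markers 3 of 6 (Spp1, Cldn4 and Sox9) fell and 0 rose (567 to 629, then 314 to 382). The part of cell makeup in the changes of the 9 genes was not tested.

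**Figure D2:**
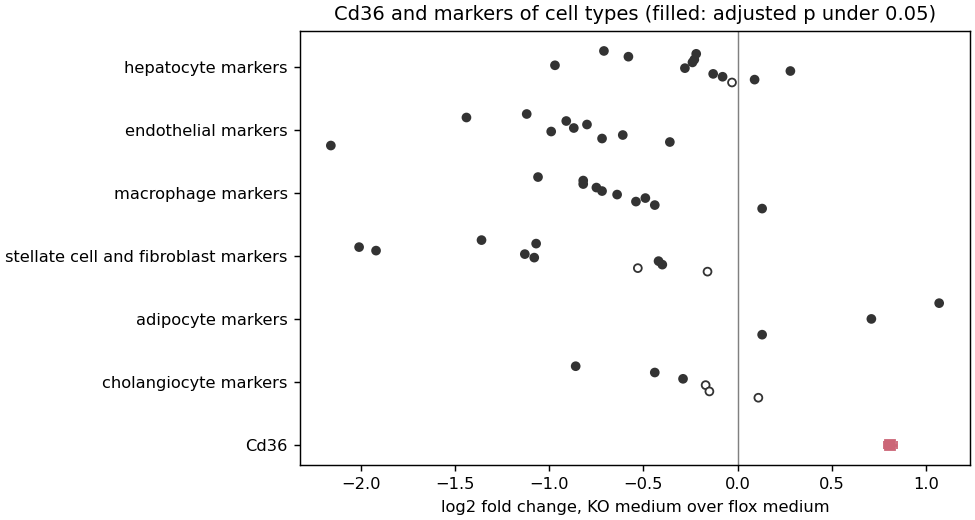
Log2 fold change of Mttp_KO_CM over Mttp_flox_CM (horizontal axis) for each tested marker gene of 6 cell types, 1 point per gene, filled where the edgeR adjusted p was under 0.05, with Cd36 as a square with its SE on the lowest line. All 10 endothelial markers and 9 of 10 macrophage markers lie left of 0, while Cd36 lies at 0.81.

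Among the fatty acid transport proteins, Slc27a2 (ENSMUSG00000027359, chromosome 2, 126394327 to 126430163, plus strand, GRCm39) encodes FATP2, a transporter of liver and kidney that also activates very-long-chain fatty acids. Its CPM was 329, 337, 322 and 310 in Mttp_flox_CM libraries 1 to 4 and 338 in the unnumbered one. Libraries 1 to 4 of Mttp_KO_CM had 652, 616, 532 and 562 CPM, and the unnumbered one had 601. The groups did not overlap, and the knockout-medium libraries spread more widely than the others. Slc27a2 rose by a log2 of 0.86 ± 0.04 (SE; 95% interval 0.78 to 0.94; edgeR adjusted p = 8.7e-15), from 327 ± 11.8 to 593 ± 46.6 CPM (SD, n = 5 each).

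Slc27a4 (ENSMUSG00000059316, chromosome 2, 29692646 to 29707534, plus strand, GRCm39) encodes FATP4, best known from intestine and skin. Mttp_flox_CM libraries 1 to 4 had 119, 119, 112 and 114 CPM and the unnumbered one had 111. The Mttp_KO_CM values were 138, 141, 141 and 134 CPM for libraries 1 to 4 and 143 CPM for the unnumbered one. The rise was small and the groups did not overlap. Its log2 change was 0.28 ± 0.033 (SE; edgeR adjusted p = 2.4e-07), with group means of 115 ± 3.9 and 139 ± 3.39 CPM (SD, n = 5 each).

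Slc27a5 (ENSMUSG00000030382, chromosome 7, 12722273 to 12732119, minus strand, GRCm39) encodes FATP5, a liver protein that also activates bile acids so that they can be conjugated. Its CPM was 42.8, 44.4, 46.9 and 40.5 in Mttp_flox_CM libraries 1 to 4 and 46.4 in the unnumbered one. Its Mttp_KO_CM values were 50.5, 46.0, 45.2 and 45.9 CPM in libraries 1 to 4 and 48.7 CPM in the unnumbered one. Only 2 of the 5 Mttp_KO_CM libraries lay above the highest Mttp_flox_CM library, and the log2 change of 0.10 ± 0.048 (SE) did not pass the test (edgeR adjusted p = 0.13).

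Slc27a1 (ENSMUSG00000031808, chromosome 8, 72021526 to 72039946, plus strand, GRCm39) encodes FATP1, known chiefly from muscle and fat. It had the lowest deposited FPKM of the 9 genes, at 3.01 ± 0.113 and 3.29 ± 0.227 (SD, n = 5 each). Libraries 1 to 4 of Mttp_flox_CM had 17.9, 17.6, 18.7 and 17.3 CPM, and the unnumbered one had 16.9. In Mttp_KO_CM libraries 1 to 4 had 19.2, 20.6, 20.5 and 17.4 CPM, and the unnumbered one had 18.7. Library 4 and the unnumbered library of Mttp_KO_CM lay inside the Mttp_flox_CM range, 3 of the 5 lay above it, and the log2 change of 0.12 ± 0.066 (SE) did not pass the test (edgeR adjusted p = 0.15).

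Acsl1 (ENSMUSG00000018796, chromosome 8, 46924074 to 46989088, plus strand, GRCm39) encodes the long-chain acyl-CoA synthetase best known in liver, found at mitochondria and the endoplasmic reticulum. Its CPM was 110, 114, 114 and 113 in Mttp_flox_CM libraries 1 to 4 and 123 in the unnumbered one. In Mttp_KO_CM it was 489, 467, 442 and 450 in libraries 1 to 4 and 480 in the unnumbered one. Every library given knockout medium lay far above every library given floxed medium, and the spread within each group was small beside the gap. Acsl1 rose by a log2 of 2.02 ± 0.034 (SE; 95% interval 1.95 to 2.09; edgeR adjusted p = 1.2e-23), from 115 ± 4.71 to 466 ± 19.9 CPM (SD, n = 5 each). Ranked by log2 change it was number 33 of the 14183 genes tested, and Slc27a2, Cd36 and Acsl3 ranked 204, 226 and 229.

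Acsl3 (ENSMUSG00000032883, chromosome 1, 78635542 to 78685460, plus strand, GRCm39) encodes a synthetase of the endoplasmic reticulum and of lipid droplets. The Mttp_flox_CM libraries 1 to 4 had 22.6, 25.7, 22.3 and 27.4 CPM, and the unnumbered one had 22.0. The Mttp_KO_CM libraries 1 to 4 had 43.0, 44.8, 44.0 and 40.0 CPM, and the unnumbered one had 38.8. The groups did not overlap. Acsl3 rose by a log2 of 0.81 ± 0.061 (SE; 95% interval 0.69 to 0.93; edgeR adjusted p = 8.8e-11), from 24.0 ± 2.43 to 42.1 ± 2.58 CPM (SD, n = 5 each). Utp14b, a gene on the same strand whose annotated span overlaps that of Acsl3, had 60.7% as many counts over the 10 libraries and a log2 change of 0.39 (edgeR adjusted p = 4.8e-05). The sources used here do not say how reads shared by both were counted, and its part in the Acsl3 value was not tested.

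Acsl4 (ENSMUSG00000031278, chromosome X, 141100989 to 141173531, minus strand, GRCm39) encodes the synthetase that prefers arachidonate and other polyunsaturated chains, and it is known for its role in ferroptosis. Its CPM was 300, 306, 294 and 276 in Mttp_flox_CM libraries 1 to 4 and 305 in the unnumbered one. Mttp_KO_CM libraries 1 to 4 had 348, 357, 343 and 330 CPM, and the unnumbered one had 332. The ranges came close without touching. The log2 change was 0.21 ± 0.031 (SE; edgeR adjusted p = 8.7e-06), with group means of 296 ± 12.4 and 342 ± 11.3 CPM (SD, n = 5 each).

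Acsl5 (ENSMUSG00000024981, chromosome 19, 55240370 to 55286152, plus strand, GRCm39) encodes a synthetase of intestine and liver. Its CPM was 598, 604, 614 and 566 in Mttp_flox_CM libraries 1 to 4 and 587 in the unnumbered one. The Mttp_KO_CM values were 645, 637, 626 and 548 CPM for libraries 1 to 4 and 582 CPM for the unnumbered one. Library 4 of Mttp_KO_CM was below every Mttp_flox_CM library while 3 of the 5 were above the highest, so the groups overlapped. The log2 change of 0.03 ± 0.036 (SE; 95% interval -0.04 to 0.10) did not pass the test (edgeR adjusted p = 0.52). With scaling by library totals alone it was -0.01. The annotated span of Zdhhc6 overlaps that of Acsl5 on the other strand, with 11.3% as many counts. Reads on bases that both genes cover cannot be told apart without strand. Whether their exons share bases was not examined.

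Low values recurred in the same libraries. Library 4 of Mttp_flox_CM was the lowest of its group for 5 of the 9 genes, among them Cd36, Slc27a2 and Acsl5, and the highest for Acsl3. Library 4 of Mttp_KO_CM was the lowest for 5 genes too, and Cd36, Acsl4 and Acsl5 were lowest in library 4 of both groups, while library 1 of that group was the highest for 5, Cd36, Slc27a2 and Acsl1 included. No call on any of the 9 genes turned on a single library.

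The promoter windows of the genes that rose most are printed here because Acsl1 has 2 annotated starts, which the count table sums into 1 value, and because Cd36, Slc27a2 and Acsl3 rose by like amounts. RefSeq windows of build GRCm38.p6 were matched for 8 of the 9 genes, with 11 windows in all, and Slc27a5 was not matched. A GENCODE transcript start was found at the end of the Acsl1 and Acsl3 windows and not of the Cd36 and Slc27a2 windows, so positions for Cd36 and Slc27a2 count from the RefSeq start alone. Each printed window holds the 250 bases before a start, 5′ to 3′ on the gene's strand. Capitals mark AGGTCA (the half-site bound by many nuclear receptors), GGGCGG (a GC box) or CCAAT, on either strand.
Acsl1, first start, chr8:46470787-46471036, plus strand: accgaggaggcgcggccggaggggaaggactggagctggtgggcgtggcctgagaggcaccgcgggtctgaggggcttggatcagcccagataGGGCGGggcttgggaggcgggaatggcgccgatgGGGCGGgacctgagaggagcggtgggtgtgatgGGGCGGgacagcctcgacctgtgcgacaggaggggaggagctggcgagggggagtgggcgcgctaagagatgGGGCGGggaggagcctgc
Acsl1, second start, chr8:46490716-46490965, plus strand: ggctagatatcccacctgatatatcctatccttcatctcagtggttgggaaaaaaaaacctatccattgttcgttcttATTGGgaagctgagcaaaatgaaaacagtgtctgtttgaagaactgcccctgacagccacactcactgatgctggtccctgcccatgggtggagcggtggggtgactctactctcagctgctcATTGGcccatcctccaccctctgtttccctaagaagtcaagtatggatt
Cd36, chr5:17835897-17836146, minus strand: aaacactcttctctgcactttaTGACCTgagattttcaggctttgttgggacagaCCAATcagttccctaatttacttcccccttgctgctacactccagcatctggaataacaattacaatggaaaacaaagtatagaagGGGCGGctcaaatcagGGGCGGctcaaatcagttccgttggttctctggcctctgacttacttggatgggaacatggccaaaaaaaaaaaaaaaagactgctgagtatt
Acsl3, chr1:78657575-78657824, plus strand: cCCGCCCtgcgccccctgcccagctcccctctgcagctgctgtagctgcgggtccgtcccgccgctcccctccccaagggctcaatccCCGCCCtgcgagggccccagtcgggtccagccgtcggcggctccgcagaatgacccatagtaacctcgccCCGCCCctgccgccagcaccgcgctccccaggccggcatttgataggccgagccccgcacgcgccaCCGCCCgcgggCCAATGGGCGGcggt
Of the Slc27a2 window, which lies inside an annotated exon, only the 30 bases around a partial direct repeat are shown, with the repeat in capitals.
Slc27a2, chr2:126552790-126552819, plus strand: cagcaccacgCCTTTGACCTtttcaacgtg
Slc27a2, the same bases on the minus strand: cacgttgaaaAGGTCAAAGGcgtggtgctg

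The 2 Acsl1 windows differed. The first was 72.0% G and C and held 4 GC boxes, the nearest 18 to 13 bases before the start, and no CCAAT. The second, at 48.4% G and C, held no GC box and 2 CCAAT motifs on the minus strand, at 172 to 168 and 49 to 45 bases before the start. The Acsl3 window was the richest in G and C of those printed, at 75.6%, with 5 GC boxes and 1 CCAAT. The Cd36 window was 43.2% G and C, with 2 GC boxes at 109 to 104 and 93 to 88 bases before the start, a CCAAT at 195 to 191 and an AGGTCA on the minus strand at 228 to 223. A GC box was present in 8 of the 11 windows and in 32.7% of all 32851 RefSeq windows of the same length. The median over all windows was 52.4% G and C, and the comparison was not matched for it. Acsl1 and Slc27a1 each gave more than 1 window, and Slc27a1, which did not pass the test, was among the genes with a GC box. CCAAT was present in 6 of the 11 windows and in 33.8% of all.

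AGGTCA alone was found in the Cd36 and Slc27a2 windows and in 14.0% of all windows, and the search took both strands. The direct repeat AGGTCANAGGTCA, the form known to be bound by PPAR with RXR, was in 0 of the 11 windows and in 0.0335% of all windows. Its first 10 letters, AGGTCANAGG, were in the Slc27a2 window at 224 to 215 bases before the start and in 0.56% of all windows. That shorter form was chosen after the window had been read, and AGGTCA lies within both longer motifs. TATAAA was in 0 of the 11 windows and in 12.4% of all. A match is a string of letters in this window and no more.

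The order of levels by FPKM shifted between the groups. In Mttp_flox_CM it ran from Cd36 (150) through Acsl5 (121), Slc27a2 (86.7), Acsl4 (54.5), Slc27a4 (25.9), Slc27a5 (18.0), Acsl1 (10.9) and Acsl3 (5.48) to Slc27a1 (3.01). In Mttp_KO_CM it ran from Cd36 (262) through Slc27a2 (157), Acsl5 (124), Acsl4 (62.9), Acsl1 (44.2), Slc27a4 (31.4), Slc27a5 (19.3) and Acsl3 (9.61) to Slc27a1 (3.29). No neighbours in either order had overlapping ranges over the 5 libraries. Slc27a2 moved past Acsl5, and Acsl1 moved past Slc27a5 and Slc27a4, from rank 7 to rank 5. The deposited length of Acsl1, 10483 bases, is far above its longest coding GENCODE transcript of 3897 bases, so its place in these orders depends on the length used. Divided by each gene's longest coding transcript instead, Acsl1 stood at rank 5 in Mttp_flox_CM (29.5 CPM per kb) and rank 4 in Mttp_KO_CM (119 CPM per kb). Slc27a1, with a deposited length of 5835 bases and a longest coding transcript of 2795, then lay just above Acsl3 in Mttp_flox_CM (6.33 and 6.08 CPM per kb) and below it in Mttp_KO_CM (6.9 and 10.7).

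Summed over its 4 genes, Acsl FPKM was 192 ± 4.91 in Mttp_flox_CM and 241 ± 11.4 in Mttp_KO_CM, and Slc27 FPKM was 134 ± 3.88 and 211 ± 13.1 (SD, n = 5 each). Neither sum overlapped between the groups. Both sums use the deposited lengths, which for Acsl1 is 10483 bases against 3897 for its longest coding transcript. The shorter length gives Acsl1 more weight, so how far the Acsl sum rose, also beside the Slc27 sum, depends on the length used. The makeup of the Acsl sum differed: Acsl1 gave 5.67% ± 0.268 of it in Mttp_flox_CM and 18.4% ± 0.897 in Mttp_KO_CM, while Acsl5 gave 63.1% ± 0.724 and 51.5% ± 1.15. Acsl4 gave 28.3% and 26.1%, and Acsl3 gave 2.85% and 3.99%. Per longest coding transcript, the Acsl1 share was 12.7% and 35.4% and the Acsl5 share 60.4% and 42.3%. The share of Acsl1 thus depends on the length used, and its direction was the same with both. Within the Slc27 sum, Slc27a2 gave 64.9% ± 0.567 and 74.3% ± 1.27, and the shares of Slc27a4 (19.4% and 14.9%), Slc27a5 (13.5% and 9.15%) and Slc27a1 (2.26% and 1.56%) were lower with knockout medium.

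**Figure D3:**
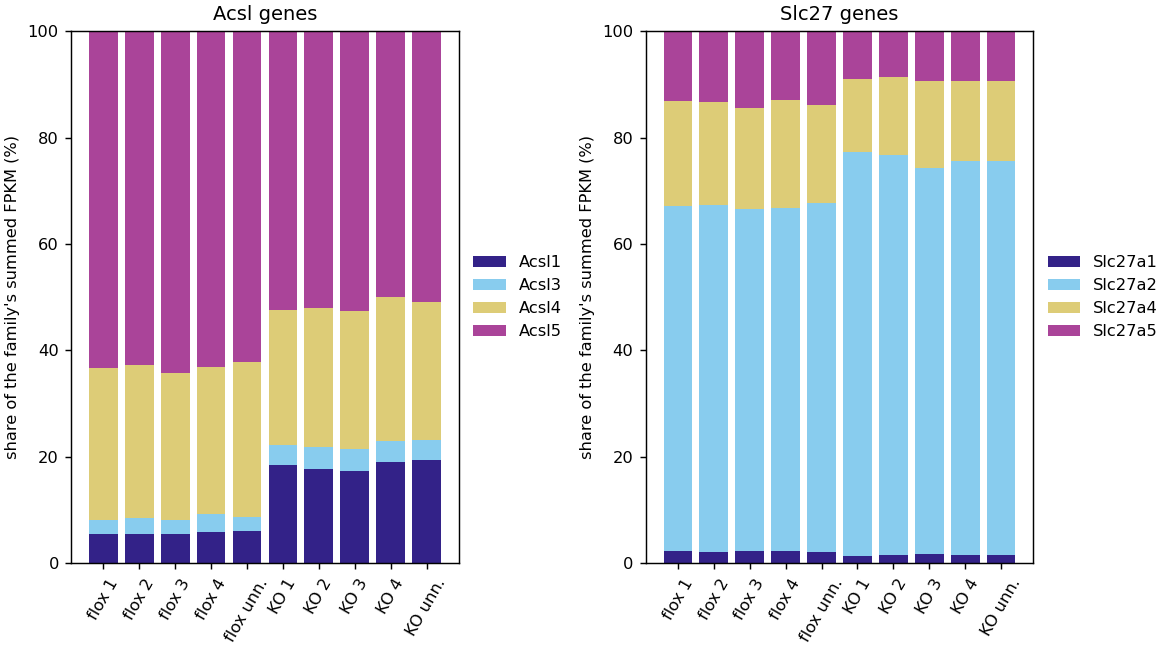
Share of each gene in the summed FPKM of the 4 Acsl genes (left) and the 4 Slc27 genes (right), in percent, 1 stacked bar per library and unn. for the unnumbered ones. The Acsl1 layer is 5.67% on average in Mttp_flox_CM and 18.4% in Mttp_KO_CM, and the Slc27a2 layer 64.9% and 74.3%.

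Ratios within a library compare how far a pair of genes changed without any scaling between libraries, and 5 such FPKM ratios were tested. Acsl1 over Acsl5 was 0.0898 ± 0.00501 in Mttp_flox_CM and 0.357 ± 0.0244 in Mttp_KO_CM (SD, n = 5 each), a log2 difference of 1.99. Acsl1 over Acsl4 was 0.2 ± 0.00955 and 0.703 ± 0.0339, a log2 difference of 1.81. Acsl1 over Acsl3 was 2.01 ± 0.236 and 4.61 ± 0.374, a log2 difference of 1.21. By these ratios, Acsl1 changed by more than each of the other 3 Acsl genes. Slc27a2 over Slc27a5 was 4.82 ± 0.229 and 8.14 ± 0.409, a log2 difference of 0.76. Slc27a1 over Slc27a4 was 0.117 ± 0.00584 and 0.105 ± 0.00604, a log2 difference of -0.16. None of the 5 ratios overlapped between the groups. Each had a two-sided exact permutation p = 0.00794, the smallest that 5 libraries against 5 allow. Benjamini-Hochberg adjustment over the 5 left that value the same. The ratios come from the same genes and libraries as the single-gene tests above, so they are not separate evidence of a change.

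Other genes of these families were few in the cells. Of 6 other transport proteins and long-chain synthetases, 2 were tested and 1 rose: Acsbg1, a synthetase known from brain, went from 2.62 ± 0.737 to 5.97 ± 1.08 CPM (SD, n = 5 each; log2 change 1.19, edgeR adjusted p = 7.1e-06). Slc27a3 stayed under 1 CPM on average, at 0.727 and 0.882. The heart isoform Slc27a6 had 0 to 5 counts a library, Acsl6 3 to 14, Acsbg3 2 to 8 and Acsbg2 0. Over all genes tested, 18.2% were higher and 18.1% lower. Of 8 short- and medium-chain acyl-CoA synthetases tested, 2 rose and 2 fell, with a median log2 change of 0.11. The number that fell was 1 without the unnumbered Mttp_flox_CM library or without Mttp_KO_CM library 3, and also with limma on FPKM, without both unnumbered libraries and with the replicate block. The number that rose was 3 without Mttp_flox_CM library 2, without its unnumbered library or without Mttp_KO_CM library 3. Acsf2 and Acss2, the cytosolic acetyl-CoA synthetase, each rose by a log2 of 0.26, and Aacs, which activates acetoacetate, fell by 0.16 on the log2 scale, as did the mitochondrial Acsm1 by 0.25.

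Downstream of activation, genes that bind, split or pass on acyl-CoA were counted in the same way, beside 18.2% of all genes higher and 18.1% lower. Of 5 acyl-CoA binding protein genes tested, 2 rose and 0 fell: Dbi, the main such protein, went from 104 ± 8.73 to 149 ± 2.98 CPM (log2 change 0.52, edgeR adjusted p = 4.7e-10), and the peroxisomal Acbd5 had a log2 change of 0.29. Acbd6 had 25.9 and 28.4 CPM and did not pass the test. Of 12 acyl-CoA thioesterase genes tested, which split acyl-CoA back into fatty acid and coenzyme A, 9 rose and 0 fell, with a median log2 change of 0.61. The mitochondrial Acot2 went from 56.2 ± 2.97 to 463 ± 16.0 CPM (log2 change 3.04), and the cytosolic Acot1 from 23.6 ± 3.45 to 468 ± 15.7 CPM (log2 change 4.31). Acot3 went from 0.169 to 21.6 CPM, and its fitted change depends on the prior count. Acot1, Acot2 and Acot3 are close copies of each other, so how counts divide among them is uncertain. Of 11 genes that lead acyl-CoA into mitochondria, peroxisomes or glycerolipids, 9 rose and 1 fell, with a median log2 change of 0.76. The peroxisomal transporter gene Abcd3 rose by a log2 of 1.39, Cpt2 by 1.03 and Cpt1a, the entry step of mitochondrial oxidation, by 0.85. Genes that rose came from each of these routes, glycerolipids included. Dgat1, which makes triglyceride from diacylglycerol and acyl-CoA, was the 1 gene of this list that did not pass the test (log2 change -0.05).

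Genes that act on CD36 or on its gene were also counted, beside 18.2% of all genes tested higher and 18.1% lower. No conclusion is drawn from counts of so few genes. Of 9 genes for the membrane partners and palmitoylation of CD36, 2 rose and 3 fell, with a median log2 change of -0.12. Zdhhc5, a palmitoyltransferase of CD36, rose by a log2 of 0.28 and Got2, the plasma membrane fatty acid binding protein in its other role, by 0.17, whereas Cavin1 of caveolae fell by 0.31 on the log2 scale and the kinase genes Lyn and Fyn each fell by 0.24. Of 6 receptor genes known to act on Cd36, 1 rose and 2 fell, and without Mttp_KO_CM library 3 the number that rose was 2. Ppara rose from 56.1 ± 3.35 to 70.8 ± 6.5 CPM (log2 change 0.33, edgeR adjusted p = 2.9e-05). Pparg had 33.1 ± 2.84 and 20.0 ± 2.27 CPM and Ahr 149 ± 8.32 and 90.7 ± 2.97 CPM (SD, n = 5 each), and both fell by 0.72 on the log2 scale.

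**Figure D4:**
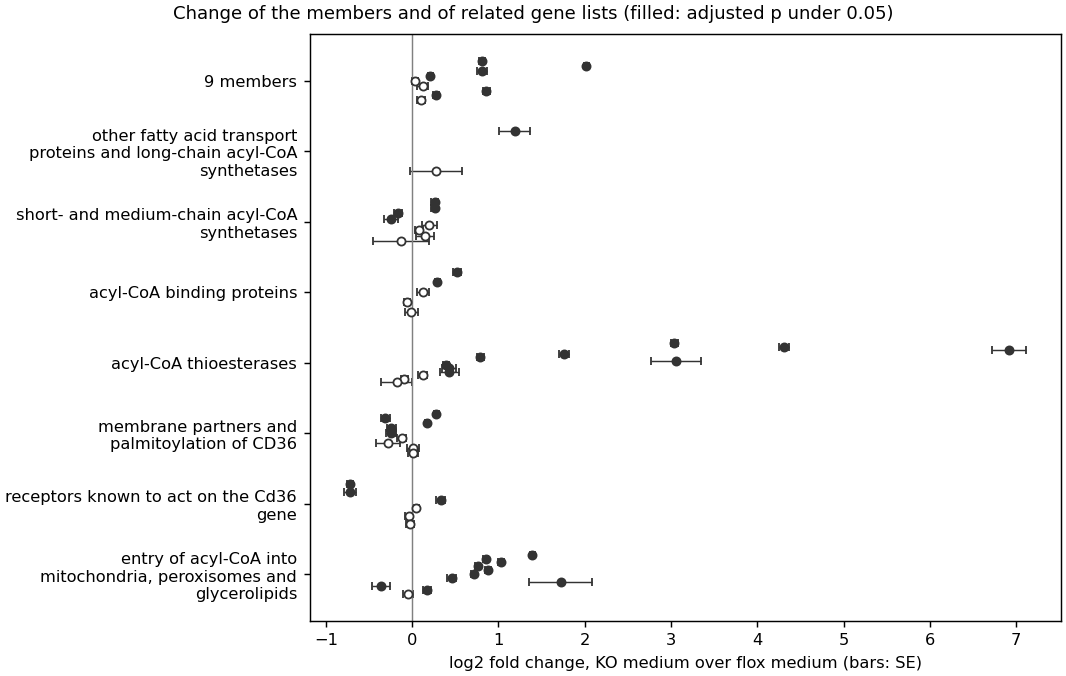
Log2 fold change of Mttp_KO_CM over Mttp_flox_CM (horizontal axis) for the 9 genes and the tested genes of 7 related lists, 1 point per gene with its SE, filled where the edgeR adjusted p was under 0.05. Of the 9 genes 6 are filled on the right of 0, and of the 12 thioesterase genes 9 are, reaching furthest to the right.

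Genes with the most similar pattern over the 10 libraries were sought among 10603 genes with a mean of at least 5 CPM, by the root mean square difference of centred log2 CPM. This measure includes the gap between the groups, so it favours genes of like log2 change. Closest to Acsl1 were Retsat, a retinol saturase (0.0672), Acaa1b, a peroxisomal thiolase (0.0817), and Creb3l3, a liver transcription factor (0.0947). Their log2 changes were 2.02, 1.98 and 1.90, beside 2.02 for Acsl1. Closest to Cd36 were Hacd3, an acyl-CoA dehydratase of chain elongation (0.0513), Acadl, the long-chain acyl-CoA dehydrogenase (0.0579), and Paqr7 (0.0594). Their log2 changes were 0.81, 0.82 and 0.77, beside 0.81 for Cd36. For Acsl5, the gene of the 9 with the lowest log2 change, the closest genes were Prkrip1 (0.0317), Opa3 (0.033) and Akirin2 (0.036). The log2 changes of these genes lay between 0.02 and 0.06.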

How the data were processed

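RNA was poly-A selected and reverse transcribed with random hexamers, and the second strand was made with dTTP, per the labels' protocols, so the counts were treated as unstranded. The tools named are HISAT2 2.0.5, an aligner, and featureCounts 1.5.0-p3, a counter, with build GRCm39, per the submitters' processing notes. The sources used here give neither the strand setting, nor the handling of multi-mapping reads, nor the annotation release. The authors deposited whole-number counts per gene, FPKM values and a gene length in bases. Gene positions are those of the deposited table. Column names gave the library for 8 columns, and 1 column per group gave the group only.

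Counts were tested with edgeR 4.0.16 in R 4.3.3 (filterByExpr, at least 10 counts and a total of at least 15, TMM, quasi-likelihood fit without block, Benjamini-Hochberg). The genes tested held 99.8% of all counts. The fold change is Mttp_KO_CM over Mttp_flox_CM with a prior count of 0.125, and its SE was derived from the F statistic. Intervals were set from that SE with the normal quantile, so they are narrower than the quasi-likelihood test itself would give. The code was tested on simulated data with 200 changed genes. Alternatives were DESeq2 1.42.0, limma 3.58.1 on log2(FPKM + 1), 2 other scalings, no filter, at least 1 CPM in 5 libraries, the block by replicate number, and leaving out libraries. Exact permutation tests were run on log2 FPKM ratios. Promoter letters came from RefSeq (GRCm38.p6) and were not joined to positions of the table. Named genes were all 9, the 3 with the smallest p of each pathway list, and the 3 most similar to Acsl1, Cd36 and the gene of lowest log2 change. Others complete a small count or overlap a gene, and were picked with their values in view. The 9 genes and all lists were chosen with earlier results of these data known. The value of 1 gene of the list on entry of acyl-CoA is not reported here.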

Additional observations from a re-analysis of the deposited data

Results flagged for a closer look

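Within-group values of the 9 genes were examined in 18 sets of 5 libraries, and 1 stood out. Acsl1 in Mttp_flox_CM had 123 CPM in the unnumbered library and 110 to 114 CPM in the other 4, and the gap to the nearest library was 0.716 of the group's range, above the critical value of 0.71 for 5 libraries. Chance gives about 1 such set in 20. All 5 Mttp_KO_CM libraries, at 442 to 489 CPM, lay above that library too.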

How the results depend on the processing

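Each of the 9 log2 changes was recomputed under 18 alternatives, and 161 of the 162 values kept their direction and their side of the threshold. The exception was Acsl5 with scaling by library totals alone, at -0.01 (edgeR adjusted p = 0.91), against 0.03. The counts of 6 genes higher and 0 lower held under each of the 18. Ranges were 1.93 to 2.04 for Acsl1, 0.82 to 0.89 for Slc27a2, 0.77 to 0.84 for Cd36, 0.71 to 0.86 for Acsl3, 0.24 to 0.29 for Slc27a4 and 0.17 to 0.23 for Acsl4. Numbers of genes called over the alternatives ran from 1982 to 2558 higher and from 2307 to 3217 lower. Over all genes, the deviations of same-numbered libraries had correlations of -0.00531 to 0.0811, each under 0.1, so the numbers were not taken as pairs, although number 4 correlated best with its own number in both groups, which the other 3 did not. With the replicate block, no call on the 9 genes changed, and the log2 differences of the ratios were 1.22 for Acsl1 over Acsl3, 1.80 over Acsl4, 1.99 over Acsl5, 0.76 for Slc27a2 over Slc27a5 and -0.14 for Slc27a1 over Slc27a4. Those 4 pairs allow no exact p below 0.125, so the block cannot pass the threshold. Shares within the families moved with the gene length used, and the alternatives for length were chosen after seeing the data. With scaling by library totals alone, 1 acyl-CoA binding protein gene and 1 thioesterase gene were lower, against 0. Depth limits little for the 9 genes, whose lowest count in a library was 248 (Slc27a1).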
